A study of Mus musculus with 10 samples.

Results

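The T cell receptor complex and its coreceptors were examined in 10 whole mouse aortas as a list of 10 genes given by symbol. The list holds the CD3 chains Cd3d, Cd3e and Cd3g and the zeta chain Cd247, the coreceptors Cd4, Cd8a and Cd8b1, the kinases Lck and Zap70, and the costimulatory receptor Cd28. A probe set carrying a single gene symbol was found for 8 of the 10, each with 1 probe set, among 22180 genes measured that way. For Cd247 and Lck no such probe set is named in the platform annotation used here, and they were not analysed here. The values are log2 expression values from Affymetrix Mouse Gene 2.0 ST arrays, so a difference of 1 is a factor of 2.

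The double knockout group had 5 arrays of aortas deficient in both ApoE (ApoE-/-) and IL-17 (IL-17-/-), and the ApoE knockout group had 5 arrays of aortas deficient in ApoE alone. ApoE deficiency, which raises plasma lipids, is therefore shared by both groups, as are the C57BL/6 background, male sex, a high fat diet given for 3 weeks from 8 weeks of age, and collection of the aorta at 11 weeks. The double knockout line was made by crossing IL-17-/- mice from another laboratory into ApoE-/- mice, and the labels name no promoter or cell type that would restrict either deletion. The protocol text attached to the ApoE knockout arrays speaks of wild-type mice and of mice lacking ApoE and caspase-1 instead of IL-17. No scan date is stated, so genotype and any separate processing of the groups cannot be told apart.

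A T cell recognises a peptide on an MHC molecule through the variable chains of its receptor, which have no signaling tails of their own. The CD3 chains and the zeta chain carry the signal inward: Lck, brought in by CD4 or CD8, phosphorylates their tails, and Zap70 binds the phosphorylated tails and passes the signal on. In the artery wall of hyperlipidemic mice T cells lie mainly in the adventitia and in lesions. CD4 marks helper cells that recognise MHC class II, and CD8 marks cytotoxic cells that recognise class I. Developing T cells of the thymus, which lies close to the aortic arch, pass through a stage at which a cell carries both CD4 and CD8.

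All 8 measured members had a lower mean in the double knockout than in the ApoE knockout, and 3 of them, the CD3 chains Cd3g, Cd3e and Cd3d, passed an adjusted p of 0.05 (limma, adjusted over all 22180 genes). None was higher, and for 0 of the 8 did the groups not overlap. Of all genes, 30.3% were called in either direction and 7.53% were called lower in the double knockout, and the groups did not overlap for 20.4% in either direction and for 4.8% in the lower one. The median log2 change of the 8 members was -1.26, against 0.10 over all genes tested. ApoE knockout replicates 2, 3 and 4 were the 3 highest of the 10 arrays for every one of the 8 members, while replicates 1 and 5 lay within or near the double knockout range. Without those 3 arrays, an alternative chosen after seeing the data, 0 of the 8 members were called by limma, beside 1.2% of all genes called lower. In that fit 1 member had an unadjusted p under 0.05, and the members' median change was -0.08 against 0.09 for all genes. Since the arrays left out were those with the highest members, that fit describes the remaining arrays and is no test of the groups. In whole tissue, fewer T cells and less RNA per T cell cannot be told apart.

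The double knockout arrays had medians over all probe sets between 5.95 and 6.03 and the ApoE knockout arrays between 5.76 and 5.80. Correlations between arrays, across genes, which are not independent replicates, ran from 0.986 to 0.992 within the double knockout, from 0.986 to 0.993 within the ApoE knockout and from 0.970 to 0.986 between the groups. Limma called 6721 genes as deposited, of which 75.1% were higher in the double knockout. That share was 44.4% of 4461 calls after quantile normalization and 22.8% of 7310 calls after centring arrays on their medians. The median change of all genes was 0.10 as deposited, -0.02 after quantile normalization and -0.11 after centring. Olfactory, vomeronasal and taste receptor genes, used mainly by sensory cells, gave a level for dim signal: the 95th percentile of their means was 5.78, here called the dim level. The smooth muscle markers Acta2 (13.52 ± 0.04 and 13.40 ± 0.09, mean log2 value ± SD, double knockout and ApoE knockout, n = 5 each) and Tagln (12.84 ± 0.04 and 12.68 ± 0.11) were bright on every array, as the aorta label requires.

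The 3 called genes are neighbors on chromosome 9, where Cd3g and Cd3d are read away from each other from starts 1355 bases apart and Cd3e follows. The windows around their starts, 250 bases before to 50 bases from the start on, are shown for these 3 called genes. Moving together was not particular to them, since all 8 members were highest in the same 3 arrays. Sequences are from RefSeq, build GRCm38.p6, written 5′ to 3′ along the strand of the gene, and capitals mark motif matches on either strand.
Cd3g, chr9:44980382-44980681, minus strand: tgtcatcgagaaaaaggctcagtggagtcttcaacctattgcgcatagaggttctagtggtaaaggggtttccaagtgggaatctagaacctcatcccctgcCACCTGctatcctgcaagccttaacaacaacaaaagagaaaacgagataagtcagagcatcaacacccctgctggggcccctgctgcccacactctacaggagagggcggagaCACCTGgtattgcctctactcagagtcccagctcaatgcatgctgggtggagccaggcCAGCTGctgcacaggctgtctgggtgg
Cd3d, chr9:44981536-44981835, plus strand: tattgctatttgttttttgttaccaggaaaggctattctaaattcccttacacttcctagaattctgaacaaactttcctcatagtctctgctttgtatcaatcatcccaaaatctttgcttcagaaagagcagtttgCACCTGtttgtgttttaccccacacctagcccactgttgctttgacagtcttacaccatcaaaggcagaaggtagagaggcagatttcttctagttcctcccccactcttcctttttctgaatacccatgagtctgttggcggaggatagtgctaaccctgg
Cd3e, chr9:45009562-45009861, minus strand: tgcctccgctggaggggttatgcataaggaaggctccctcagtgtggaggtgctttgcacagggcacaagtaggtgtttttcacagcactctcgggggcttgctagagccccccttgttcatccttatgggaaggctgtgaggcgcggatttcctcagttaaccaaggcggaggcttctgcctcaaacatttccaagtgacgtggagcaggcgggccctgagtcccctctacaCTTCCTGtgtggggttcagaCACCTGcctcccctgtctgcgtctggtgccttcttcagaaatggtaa

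The search, on both strands, covered 4 motifs, and no match overlapped another in these windows. The first E-box form, bound by E proteins, was CAGGTG. It stood in all 3 windows, and in 20.2% of the 32851 windows of the RefSeq table. The second E-box form was CAGCTG, which stood in the Cd3g window and in 16.3% of the table. An ETS core was searched as CAGGAAG, which stood in the Cd3e window and in 13.3% of the table. A RUNX form, TGTGGTT, stood in none of the 3 windows and in 5.27% of the table. Of the 10 listed members 7 had a window, and 6 of these 7 held the first E-box form in at least 1 window. Counted by window, as the 20.2% is, it stood in 8 of the members' 10 windows. These include windows of Cd247 and Lck, which were not measured, and Zap70 and Lck had more than 1 window each. The Cd8a window did not hold that form, and Cd4, Cd8b1 and Cd28 had no window. The counts therefore do not describe the called members alone. A match is a stretch of letters and was not tested for binding. Genes next to the CD3 genes, picked by position once the members' values were known, were not called. Ube4a had a log2 change of 0.05 (SE 0.08, limma adjusted p = 0.65), Mpzl3 of -0.11 (SE 0.09, adjusted p = 0.38) and Mpzl2 of -0.69 (SE 0.43, adjusted p = 0.24).

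Cd3g encodes the gamma chain of the CD3 complex. Its log2 values in double knockout replicates 1 to 5 were 7.16, 6.59, 5.91, 5.65 and 6.68, and in ApoE knockout replicates 1 to 5 they were 7.66, 9.83, 9.43, 9.06 and 7.00. Cd3g was the only member with 4 ApoE knockout arrays above every double knockout array, and replicate 5 fell inside the double knockout range. It averaged 6.40 ± 0.61 in the double knockout and 8.60 ± 1.21 in the ApoE knockout (SD, n = 5 each), and it was 4.60-fold lower in the double knockout (log2 change -2.20, SE 0.51, limma adjusted p = 0.0090). Without ApoE knockout replicates 2, 3 and 4 the change was -0.93 (SE 0.39, adjusted p = 0.18).

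Cd3e, the epsilon chain that pairs with both gamma and delta, had values of 7.54, 6.95, 6.38, 6.47 and 6.82 in double knockout replicates 1 to 5. The corresponding ApoE knockout values were 7.21, 9.28, 8.91, 8.46 and 6.88. Replicates 1 and 5 of the ApoE knockout were below double knockout replicate 1, so the groups overlapped. Cd3e was 2.49-fold lower in the double knockout (6.83 ± 0.46 and 8.15 ± 1.06, SD, n = 5 each, log2 change -1.32, SE 0.43, limma adjusted p = 0.040). The call was lost in 10 of 19 other fits at the threshold of 0.05, and also at a threshold of 0.01. The change was -0.21 (adjusted p = 0.68) without ApoE knockout replicates 2, 3 and 4.

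The delta chain Cd3d was dimmer: its double knockout values were 6.16, 5.38, 5.38, 5.05 and 5.66, and 4 of these 5 lay below the dim level of 5.78. In the ApoE knockout it had 5.93, 7.28, 6.90, 6.71 and 5.99. Replicates 2, 3 and 4 again stood above all double knockout arrays, and replicates 1 and 5 lay just below double knockout replicate 1. Cd3d averaged 5.53 ± 0.41 in the double knockout and 6.56 ± 0.59 in the ApoE knockout (SD, n = 5 each) and was 2.05-fold lower (log2 change -1.04, SE 0.27, limma adjusted p = 0.016), a fold that background may limit. Without the 3 arrays its change was -0.43 (adjusted p = 0.32).

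**Figure D1:**
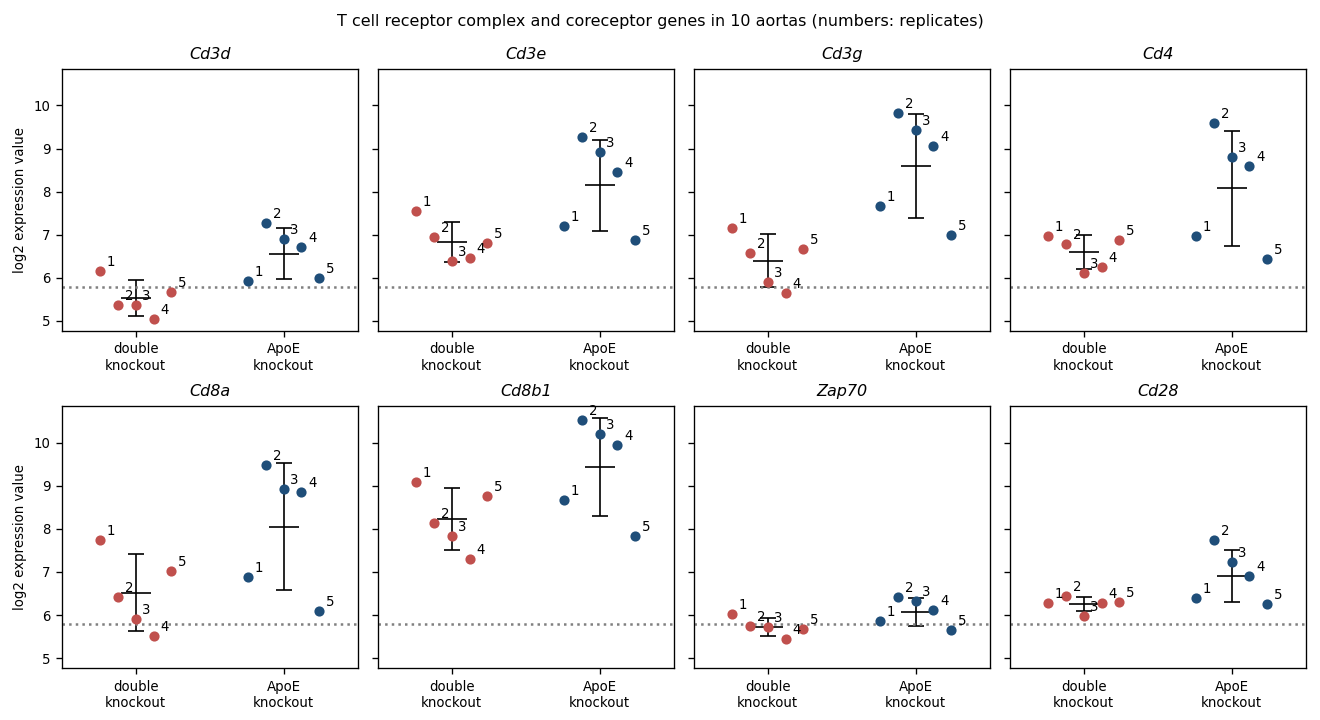
Log2 value of each of the 8 measured members (vertical axis) in the 5 double knockout (left) and 5 ApoE knockout (right) aortas. Points are arrays with their replicate numbers, bars are mean and SD, and the dotted line is the dim level of 5.78; in every panel ApoE knockout replicates 2, 3 and 4 are the 3 highest points.

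None of the 3 coreceptor genes passed the test, and Cd8a and Cd4 had the largest spreads of all members in the ApoE knockout (SD 1.47 and 1.33). Cd4, which binds MHC class II and is also found on some mouse dendritic cells, had values of 6.97, 6.80, 6.11, 6.26 and 6.88 in double knockout replicates 1 to 5. In the ApoE knockout Cd4 had 6.96, 9.59, 8.81, 8.58 and 6.43. ApoE knockout replicates 1 and 5 were within the double knockout range and the other three stood more than 1 above its top. The difference of -1.47 (SE 0.52, limma adjusted p = 0.051, 95% interval from -2.61 to -0.33) lay at the edge of the threshold.

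Cd8a encodes the alpha chain of CD8, which also occurs on a dendritic cell subset. Its double knockout values were 7.75, 6.41, 5.92, 5.51 and 7.03, the widest range of any member in that group at 2.25. In the ApoE knockout Cd8a had 6.88, 9.49, 8.91, 8.85 and 6.08, a range of 3.40. Double knockout replicate 1 was above ApoE knockout replicates 1 and 5. The log2 change was -1.52 (SE 0.65, limma adjusted p = 0.094, 95% interval from -2.93 to -0.11), and it was 0.04 (adjusted p = 0.97) without ApoE knockout replicates 2, 3 and 4.

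Cd8b1, the beta chain that makes the CD8 form typical of thymus-derived T cells, followed the same arrays. It had 9.10, 8.13, 7.83, 7.30 and 8.76 in the double knockout and 8.67, 10.52, 10.20, 9.95 and 7.82 in the ApoE knockout. The groups overlapped: double knockout replicates 1 and 5 were above ApoE knockout replicate 1, and all double knockout arrays but replicate 4 were above ApoE knockout replicate 5. The change was -1.21 (SE 0.51, limma adjusted p = 0.091) with all arrays and -0.02 (adjusted p = 0.98) without the 3 highest. Cd8a and Cd8b1 are neighbors, and of the genes on their outer sides Gm1070 was not called (log2 change 0.17, adjusted p = 0.22) while Rmnd5a was lower (-0.53, SE 0.09, adjusted p = 0.0025).

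Zap70, the kinase that docks on phosphorylated CD3 and zeta tails, lay near the dim level and moved least. Its values were 6.03, 5.75, 5.73, 5.44 and 5.68 in the double knockout and 5.86, 6.42, 6.32, 6.12 and 5.65 in the ApoE knockout. Even in this narrow range the 3 highest arrays were ApoE knockout replicates 2, 3 and 4. The change of -0.35 (SE 0.15, limma adjusted p = 0.10) did not pass.

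Cd28 encodes the receptor for CD80 and CD86 that gives T cells their main costimulatory signal. It had 6.27, 6.44, 5.98, 6.29 and 6.31 in double knockout replicates 1 to 5, and 6.39, 7.75, 7.24, 6.90 and 6.25 in ApoE knockout replicates 1 to 5. The double knockout spread was small (SD 0.17) beside that of the ApoE knockout (SD 0.61). Its log2 change was -0.65 (SE 0.24, limma adjusted p = 0.064). Of the ligands of CD28, Cd86 was lower in the double knockout with no overlap between the groups (6.21 ± 0.34 and 6.83 ± 0.14, SD, n = 5 each, log2 change -0.62, adjusted p = 0.010). Without ApoE knockout replicates 2, 3 and 4 Cd86 was not called (-0.51, SE 0.21, adjusted p = 0.18). Cd80 was not called (-0.08, SE 0.12, adjusted p = 0.65).

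**Figure D2:**
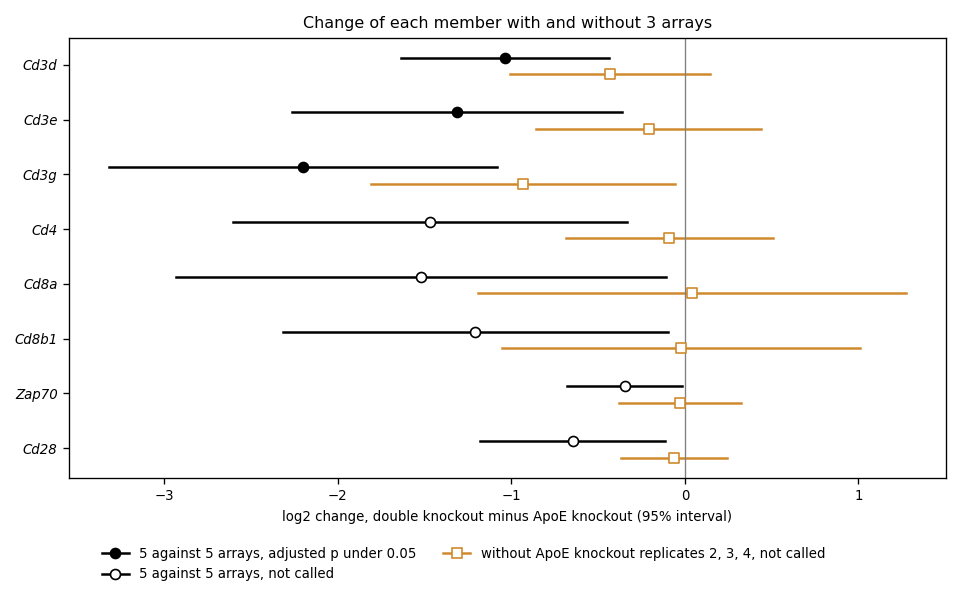
Log2 change (double knockout minus ApoE knockout, horizontal axis) of each member with its 95% interval, with all 10 arrays (circles, filled where the adjusted p is under 0.05) and without ApoE knockout replicates 2, 3 and 4 (squares). With all arrays the changes run from -2.20 for Cd3g to -0.35 for Zap70, and without the 3 arrays from -0.93 for Cd3g to 0.04 for Cd8a.

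The members varied together from aorta to aorta. In the ApoE knockout 7 of 8 members ordered the arrays as 2, 3, 4, 1 and 5 from high to low, and Cd3d differed only in the order of 1 and 5. In the double knockout 7 of 8 were highest in replicate 1, 5 were lowest in replicate 4 and 3 in replicate 3, and Cd28 was the exception at the top with its highest value in replicate 2. All 8 had a smaller SD in the double knockout than in the ApoE knockout, with median SDs of 0.44 in the double knockout and 1.10 in the ApoE knockout. Over all genes the median SDs were 0.16 in the double knockout and 0.15 in the ApoE knockout, and 7 of the 8 members exceeded 0.41, the 95th percentile of all genes in the ApoE knockout. The mean of the 8 members was 7.12, 6.56, 6.15, 5.99 and 6.73 in double knockout replicates 1 to 5, against 6.94, 8.77, 8.34, 8.08 and 6.51 in ApoE knockout replicates 1 to 5.

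Genes whose deviations from their group means were most like those of the members were found among 13556 of the 13583 genes above the dim level. The members themselves and genes with symbols of antigen receptor segments were left out before the ranking. As a description over the 10 arrays, which share libraries and normalization with the members, the highest Pearson correlations belonged to Myb (0.987), Satb1 (0.987), Lat (0.984), Cd5 (0.983), Dntt (0.978), Cd96 (0.975), Cd27 (0.974) and Trp53i11 (0.973). The median over the genes compared was near 0, and 17 genes were above 0.95. Lat, the membrane adaptor that Zap70 phosphorylates, was lower in the double knockout (7.10 and 8.37, group means, log2 change -1.28, SE 0.41, limma adjusted p = 0.037). Cd5, a surface receptor that dampens T cell receptor signaling, was also lower (-0.87, SE 0.24, adjusted p = 0.021). Myb, a transcription factor of blood cell progenitors and thymocytes, was not called (-1.26, SE 0.68, adjusted p = 0.18), and neither was Satb1, a chromatin organiser of thymocytes (-1.14, SE 0.48, adjusted p = 0.091).

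Dntt, terminal deoxynucleotidyl transferase, adds bases to rearranging receptor genes and is used by developing lymphocytes. It had 6.86, 5.83, 5.51, 5.66 and 6.10 in double knockout replicates 1 to 5, and 5.74, 8.76, 8.43, 7.79 and 5.10 in ApoE knockout replicates 1 to 5. Rag2, a subunit of the recombinase that cuts receptor genes and that mature T cells do not use, had 5.34, 5.04, 4.31, 4.44 and 5.28 in the double knockout and 4.48, 7.44, 6.61, 6.35 and 4.13 in the ApoE knockout. Both were high in the same 3 ApoE knockout arrays as the members, and replicate 1 was their top array within the double knockout. Rag2 lay below the dim level in the other 7 arrays.

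Of the 6 listed immature thymocyte markers 5 were measured, and Rag1 has only a probe set shared with another gene. Arpp21, a thymocyte gene also used in brain, had 5.87, 5.02, 5.01, 5.01 and 5.21 in the double knockout and 5.18, 7.00, 6.77, 6.66 and 4.95 in the ApoE knockout. Endou ranged from 4.98 to 5.96 in the double knockout and from 4.57 to 7.05 in the ApoE knockout, where replicates 2, 4 and 3 were again highest. Ptcra, the pre-T cell receptor alpha chain, did not share the pattern: it ranged from 6.44 to 6.61 in the double knockout and from 6.16 to 6.47 in the ApoE knockout. None of the 5 was called (median log2 change -0.89), and their mean ran from 5.31 to 6.13 in the double knockout and from 5.04 to 7.34 in the ApoE knockout. Without ApoE knockout replicates 2, 3 and 4 Dntt differed by 0.57 (SE 0.34, limma adjusted p = 0.33) and Rag2 by 0.58 (SE 0.29, adjusted p = 0.26).

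Markers of the thymic epithelium were mixed. The mean of the 6 measured genes of that list ran from 5.69 to 5.96 in the double knockout and from 5.62 to 5.80 in the ApoE knockout, where replicates 2, 4 and 3 were the highest, at 5.80, 5.75 and 5.73. Tbata, a gene of thymus and testis, had 6.13, 5.71, 5.51, 5.55 and 5.92 in double knockout replicates 1 to 5, and 5.69, 6.14, 6.10, 6.06 and 5.64 in ApoE knockout replicates 1 to 5. It was thus high in the same 3 ApoE knockout arrays as the members and, within the double knockout, in replicate 1. Aire, by contrast, was lowest of the 10 arrays in ApoE knockout replicate 2, at 6.24. Aire averaged 6.62 and 6.53, Ccl25 6.29 and 6.21 and Tbata 5.76 and 5.92 (double knockout and ApoE knockout), none of them called. Psmb11 was called higher with both group means below the dim level (5.41 and 5.05), and the call was lost after quantile normalization (log2 change 0.10, limma adjusted p = 0.35). The labels do not say how the aortas were freed of surrounding tissue. The part of developing T cells in the differences of the members was not tested.

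**Figure D3:**
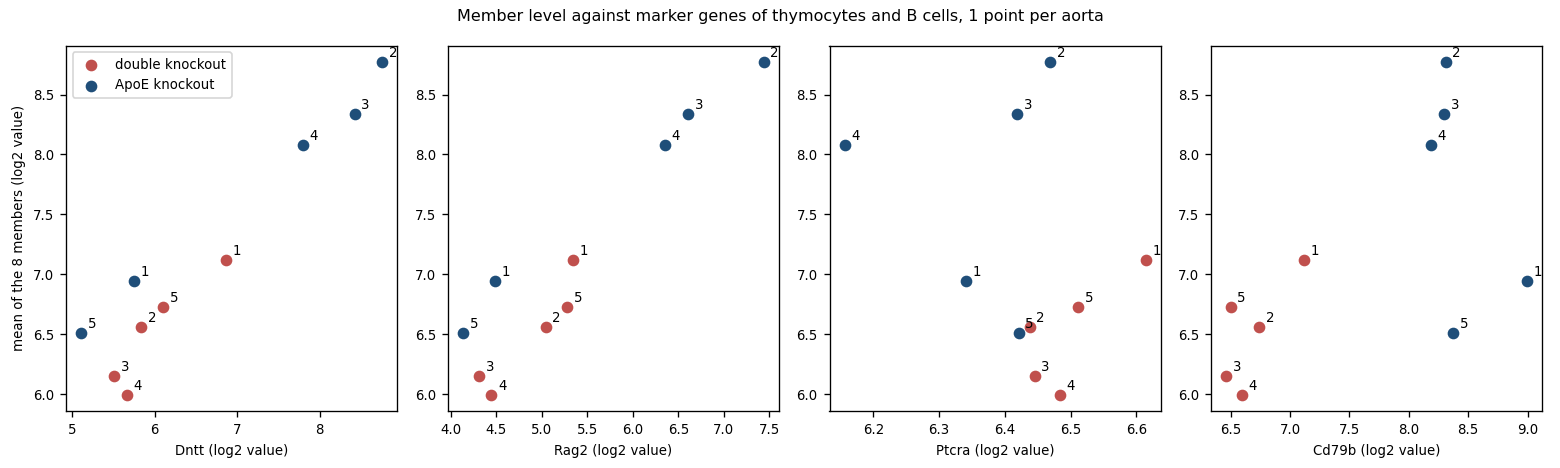
Mean log2 value of the 8 members (vertical axis) against the log2 value of Dntt, Rag2, Ptcra and the B cell gene Cd79b (horizontal axes), 1 point per aorta with its replicate number, double knockout and ApoE knockout in 2 colors. ApoE knockout replicates 2, 3 and 4 lie at the upper right for Dntt and Rag2, while Cd79b separates all 5 double knockout from all 5 ApoE knockout aortas.

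Further genes of T cell receptor signaling were lower in the double knockout, in part with the members' pattern and in part without it. Of 28 measured adaptors and enzymes 14 were lower, 0 higher and 14 not called (median log2 change -0.57). Of all genes tested 7.53% were called lower and 22.8% higher, and the list counts below are to be read beside these shares. Grap2, an adaptor that joins Lat to the scaffold Lcp2, was 6.44, 6.41, 5.92, 5.89 and 6.29 in the double knockout and 7.86, 8.77, 8.34, 8.12 and 7.48 in the ApoE knockout. All 5 double knockout values were below all 5 ApoE knockout values (log2 change -1.92, SE 0.21, limma adjusted p = 0.00022). The phosphatase gene Ptpn22, a brake on Lck, was lower without overlap (-1.37, SE 0.25, adjusted p = 0.0027), as was the transcription factor gene Nfatc1 (-0.37, SE 0.08, adjusted p = 0.0063). The double knockout mean of Ptpn22, 5.77, lay just below the dim level. Prkcq, the kinase that links the receptor to NF-kB, was lower with overlap (-0.92, SE 0.22, adjusted p = 0.011).

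Among 23 accessory receptors of the T cell surface 12 were lower, 0 higher and 11 not called (median -0.63). Lower without overlap between the groups were 7, beside 4.8% of all genes. Slamf1, a receptor of several lymphocyte and myeloid cells, averaged 5.38 ± 0.25 in the double knockout and 7.25 ± 0.35 in the ApoE knockout (SD, n = 5 each, log2 change -1.87, limma adjusted p = 6.9e-05). Cd226, an activating receptor also carried by platelets and natural killer cells, averaged 5.55 ± 0.47 and 7.33 ± 0.25 (-1.78, adjusted p = 0.00026). The interleukin 2 receptor chain Il2rb changed by -0.98 (SE 0.13, adjusted p = 0.00045), and Cd7 by -1.20 (SE 0.16, adjusted p = 0.00063). The double knockout means of Slamf1, Cd226 and Il2rb lay below the dim level, so background may limit these changes.

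Of 13 transcription factors 6 were lower, 1 higher and 6 not called (median -0.47), beside 7.53% lower and 22.8% higher of all genes. Lef1, a partner of beta-catenin in T cell development, had a change of -1.23 (SE 0.31, limma adjusted p = 0.013) and Gata3 of -0.47 without overlap (SE 0.10, adjusted p = 0.0072). The lymphocyte factor Ikzf3 changed by -1.25 (SE 0.26, adjusted p = 0.0052). Its double knockout mean, 5.55, lay below the dim level, so background may limit that change. Foxp3, the factor of regulatory T cells, was higher in the double knockout without overlap, from 5.79 to 6.05 there and from 5.38 to 5.53 in the ApoE knockout (0.48, SE 0.07, adjusted p = 0.00079). Its ApoE knockout values were all below the dim level, where receptor genes had a median change of 0.29, and after quantile normalization it changed by 0.26 (adjusted p = 0.015). None of the 12 symbols listed for receptor constant regions has a probe set of its own here.

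Over the 66 measured genes of these lists 33 were lower with all arrays, beside 7.53% of all genes, and 6 without ApoE knockout replicates 2, 3 and 4. The 6 were Grap2, Cd7, Cd226, Slamf1, Il2rb and Cd69, and Foxp3 stayed the only gene called higher. In that smaller fit 1.2% of all genes were called lower. Slamf1 then changed by -1.70 (SE 0.24, limma adjusted p = 0.011) and Cd226 by -1.72 (SE 0.32, adjusted p = 0.024).

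**Figure D4:**
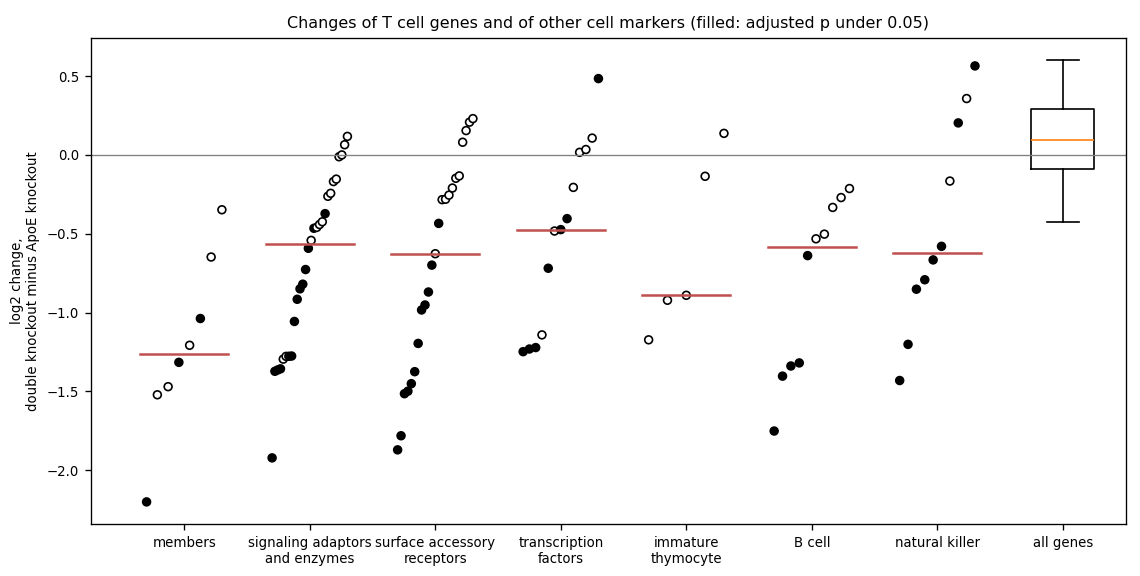
Log2 change (double knockout minus ApoE knockout, vertical axis) of each gene in the members' list, 3 T cell lists and 3 lists of other cells, filled where the adjusted p is under 0.05, with each list's median as a line. The box on the right shows all 22180 genes (median, quartiles and whiskers from the 5th to the 95th percentile), and the members' median is -1.26 against 0.10 for all genes.

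B cell and natural killer genes were mixed in the arrays in which they were high. Cd79b, a signaling chain of the B cell receptor, had 7.12, 6.74, 6.46, 6.59 and 6.50 in double knockout replicates 1 to 5, and 9.00, 8.31, 8.30, 8.19 and 8.38 in ApoE knockout replicates 1 to 5. The groups were apart in every array, and the highest value was in ApoE knockout replicate 1. The mean of the 8 members in that array, 6.94, was below that of double knockout replicate 1 (7.12). The accessory receptor Cd226 had its highest value there (7.61), and Cd7 was nearly equal there (7.39) and in ApoE knockout replicate 2 (7.38). Of 10 B cell genes 5 were lower, beside 7.53% of all genes, and 0 were higher. Without ApoE knockout replicates 2, 3 and 4 the number lower was 4, beside 1.2% of all genes. Cd79b then changed by -2.0 (SE 0.22, limma adjusted p = 0.0044). The mean of the 10 B cell genes ran from 6.00 to 6.41 in the double knockout and from 6.77 to 7.50 in the ApoE knockout, with no overlap. Bank1, a B cell scaffold, was lower (-0.64, SE 0.15, adjusted p = 0.0084), and Blnk was not called (-0.33, SE 0.25, adjusted p = 0.32). Blnk was highest in ApoE knockout replicate 2, at 8.14, as the members were, but its next highest array was double knockout replicate 2, at 7.94. Of 10 natural killer genes 6 were lower and 2 higher, beside 7.53% and 22.8% of all genes. The calls of both that were higher were lost after quantile normalization. Gzmb, the killing protease granzyme B, averaged 5.50 ± 0.32 in the double knockout and 6.93 ± 0.71 in the ApoE knockout (SD, n = 5 each, adjusted p = 0.0052). The double knockout mean of Gzmb lay below the dim level, so background may limit its change. Nkg7 averaged 6.80 ± 0.30 and 7.60 ± 0.28 (adjusted p = 0.0048). Prf1, the pore former perforin, was not called (-0.17, SE 0.15, adjusted p = 0.43), and it was highest in ApoE knockout replicates 3 and 2, at 7.22 and 6.75. Gzmb was highest in ApoE knockout replicate 5 at 7.71, the array with the lowest member mean of that group. Whether the members' differences exceed those of B cell genes was not tested.

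**Figure D5:**
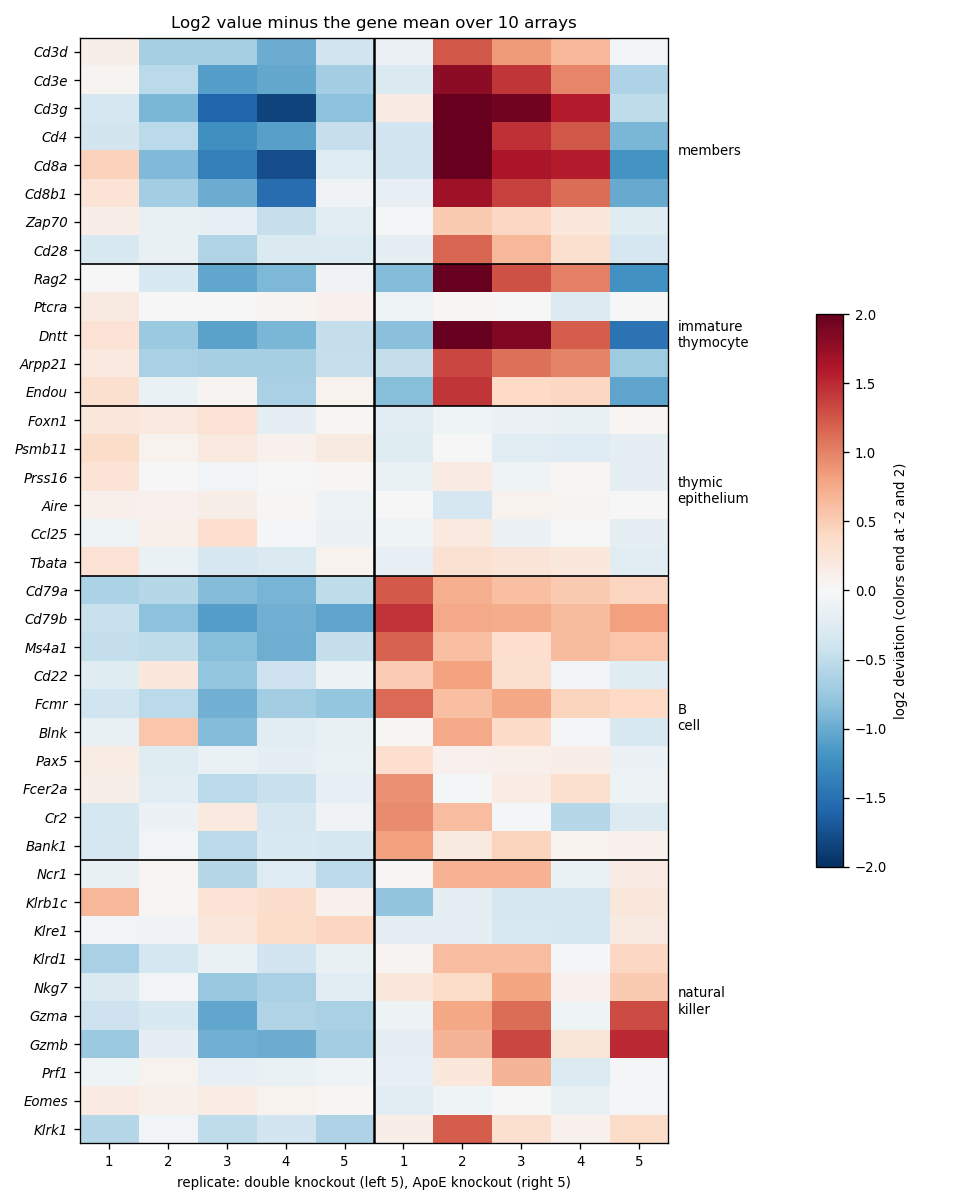
Log2 value minus the gene's mean over the 10 arrays (color, ending at -2 and 2) for the members, immature thymocyte, thymic epithelium, B cell and natural killer genes (rows) in the double knockout (left 5 columns) and ApoE knockout (right 5 columns) replicates. The members and Rag2, Dntt, Arpp21 and Endou are red in ApoE knockout columns 2, 3 and 4, whereas Cd79a, Cd79b, Ms4a1 and Fcmr are red in all 5 ApoE knockout columns.

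Some proliferation genes were lower in the double knockout. Of 9 measured cell cycle genes 5 were lower, 0 higher and 4 not called with all arrays, beside 7.53% lower of all genes. Without ApoE knockout replicates 2, 3 and 4, 0 of the 9 were called, beside 1.2% lower of all genes. Mki67, the marker of dividing cells, had 7.19, 7.88, 6.49, 6.90 and 7.35 in the double knockout and 7.82, 9.19, 8.44, 8.50 and 7.93 in the ApoE knockout (log2 change -1.21, SE 0.29, limma adjusted p = 0.0095). Its 3 highest arrays were the ones in which the members were highest, but in the double knockout it was highest in replicate 2 and not in replicate 1. Ccna2 changed by -1.08 (SE 0.29, adjusted p = 0.017), and Pcna did not pass (0.03, SE 0.11, adjusted p = 0.87). In the fit of 2 against 5 arrays Mki67 changed by -0.71 (SE 0.31), Ccna2 by -0.60 (SE 0.32) and Pcna by 0.25 (SE 0.12). The median of the 9 genes was -0.60 with all arrays and -0.24 in that fit.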

How the data were processed

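The 10 aortas were profiled on Mouse Gene 2.0 ST arrays according to the labels' protocols, and samples were grouped by title. The deposited values were taken to be log2 from their range. The submitters' processing notes name limma without a version or a role. The background correction and normalization behind them are not stated there.

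Among 41345 probe sets, those with a single symbol (23521) were used, while 1814 with more than 1 symbol and 16010 without one stayed unnamed. Symbols were updated by gene identifier from the RefSeq table of GRCm38.p6 for 23328 probe sets, and 193 kept the older name. The probe set with the highest mean stood for a gene, leaving 22180 genes and no filter on low values. The test was limma 3.58.1 (lmFit and eBayes, R 4.3.3), two-sided, without covariates, with Benjamini-Hochberg adjustment over all genes and a threshold of 0.05. Effects are double knockout minus ApoE knockout. The code was tested on simulated data, and precision is limited by having 5 arrays a group. The labels call the samples biological replicates without saying whether each array held 1 mouse.

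The members and gene lists were chosen with earlier results of these data known. Named genes were all members, up to 4 called genes with the smallest p in each T cell list (2 where none was called), the 3 with the highest mean in each other list, every immature thymocyte marker and the 8 genes most like the members. Other genes named, such as Cd69, Cd79a, Ms4a1, Fcmr, Cd163, Madcam1, Cd80, Psmb11 and the chromosomal neighbors, were chosen after their values were seen. Alternatives were quantile normalization, median centring, 2 filters, the mean of probe sets, a trended robust prior, weighted arrays, a block for replicate number, a threshold of 0.01 and leaving out each array. Leaving out ApoE knockout replicates 2, 3 and 4 together was added after the data were seen, and since these arrays had the highest members that fit describes the remaining arrays and is no test of the groups.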

Additional observations from a re-analysis of the deposited data

Results flagged for a closer look

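In 5 of 120 groups of 5 arrays, taken over the named genes, 1 array stood far from the rest; chance gives about 1 in 20. In the double knockout, replicate 1 had Arpp21 at 5.87 while the others ran from 5.01 to 5.21, and it had the highest mean of the members in that group. It also had Lyve1 at 9.62, against 10.17 to 10.37 in the others. In the ApoE knockout, replicate 1 had Cd79b at 9.00 (8.19 to 8.38 in the others) and Mertk at 9.90 (10.23 to 10.35). Replicate 2 of the ApoE knockout had Aire at 6.24, against 6.57 to 6.65. No single array stood apart in this way for any of the 8 members. The rule looks at 1 extreme array, so it does not show a split such as high ApoE knockout replicates 2, 3 and 4.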

How the results depend on the processing

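The 3 members called lower became 6 after quantile normalization, 7 after centring on array medians, 8 with array weights, 1 at a threshold of 0.01 and 0 without ApoE knockout replicates 2, 3 and 4. Leaving out 1 array at a time gave 2 to 8 members: 8 without ApoE knockout replicate 5, 5 without ApoE knockout replicate 1, 3 without double knockout replicate 1 and 2 without any of the other seven. No member was called higher under any alternative. The log2 change of Cd8a reversed to 0.039 without ApoE knockout replicates 2, 3 and 4, a fit on 2 against 5 arrays. Among 19 other fits at the threshold of 0.05, calls for Cd3g and Cd3d held in 18 each and were lost in that one, while at 0.01 the member still called was Cd3g. The cause was not tested. The share of all genes called lower was 11.2% after quantile normalization, 25.4% after centring and 8.9% with array weights. It was 2.86% at a threshold of 0.01 and 1.2% without ApoE knockout replicates 2, 3 and 4. With 1 array left out at a time it ran from 5.05% to 8.68%, and it was 7.59% without ApoE knockout replicate 5. The falls in the member count are to be read beside these shares.

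Over all genes the 6721 calls became 4461 after quantile normalization, 3525 above the dim level, 3419 in the upper 60% by mean, 2970 at 0.01, 1209 without the 3 arrays and 5056 to 7022 without single arrays. Filters tested fewer genes. The 33 genes called lower in the T cell lists became 13 at 0.01, 6 without the 3 arrays and 18 to 41 without single arrays. They were 18 without ApoE knockout replicate 3, 20 without replicate 2, and 21 without double knockout replicate 3 or 4. With the replicate number as a block 2 members, 6594 genes and 30 list genes were called. Cd3e was not called with that block (limma adjusted p = 0.058). Same-numbered arrays shared deviations with correlations from -0.13 to 0.26, over 0.1 for 3 of 5 numbers. Arrays of different numbers had correlations from -0.24 to 0.18. The titles give replicate numbers without naming pairs, and the main fit did not pair them. Whether the numbers stand for pairs was not tested. Dim values may limit the folds of Cd3d and Zap70, which each had 4 of 5 double knockout arrays below the dim level. Cd3g and Cd8a each had 1 below it.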

Other observations

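Genes of other cells of the aorta are given for their values. Of 10 macrophage genes 1 was lower and 0 higher (median log2 change -0.26), beside 7.53% lower and 22.8% higher of all genes. The lower gene was Cd163, without overlap (log2 change -0.81, SE 0.10, limma adjusted p = 0.00038). Without ApoE knockout replicates 2, 3 and 4 Cd163 changed by -0.89 (SE 0.13, adjusted p = 0.012). The scavenger receptor gene Cd68 averaged 10.94 ± 0.57 in the double knockout and 10.58 ± 0.63 in the ApoE knockout, Mertk 10.37 ± 0.19 and 10.21 ± 0.18, and Lyve1 10.15 ± 0.31 and 10.40 ± 0.14 (SD, n = 5 each), and none of these passed limma (adjusted p = 0.40, 0.29 and 0.19). Of 7 dendritic cell genes 1 was lower, Cd209a (-0.41, adjusted p = 0.047), and 1 higher, Zbtb46 (0.23, adjusted p = 0.044), and after quantile normalization 0 were called; Itgax did not pass (-0.39, SE 0.44, adjusted p = 0.51).

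Of 5 genes listed for gamma delta T cells, a source of IL-17, Maf was lower (-0.27, limma adjusted p = 0.040), Cd163l1 higher (0.35, adjusted p = 0.041) and Sox13 not called (-0.22, SE 0.13, adjusted p = 0.22); the calls of Maf and Cd163l1 were lost after quantile normalization (adjusted p = 0.055 and 0.35). Of 5 genes of lymph node stroma and homing, Ccr7, the receptor that guides naive T cells, was lower without overlap (6.65 ± 0.35 in the double knockout and 7.84 ± 0.28 in the ApoE knockout, SD, n = 5 each, adjusted p = 0.00094). Without ApoE knockout replicates 2, 3 and 4 it stood just under the threshold (-1.13, SE 0.27, limma adjusted p = 0.048). Madcam1, an adhesion molecule, was called higher (log2 change 0.46, adjusted p = 0.0017). Its ApoE knockout mean, 5.58, lay below the dim level, and after quantile normalization it changed by 0.25 (adjusted p = 0.027). Cxcl13 (-0.21, adjusted p = 0.37) and S1pr1 (-0.22, adjusted p = 0.35) did not pass. Of 6 smooth muscle genes 2 were higher, among them Cnn1 (0.28, SE 0.09, adjusted p = 0.031), beside 22.8% of all genes. The mean of the 6 was lowest in ApoE knockout replicate 2 at 11.63, the array with the highest members.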
